A study of Mus musculus with 38 samples.

Results

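The genes described here are 10 members of MHC class I and class II antigen presentation, measured by 91 of the 36607 probes of a 2-colour mouse array, on which 17501 genes carry a probe of their own. They are the class I heavy chain genes H2-Bl, H2-D1 and H2-K1, the light chain gene B2m, the peptide loading genes Tap1 and Tapbp, the class II chain genes H2-Aa, H2-Ab1 and H2-Eb1, and Cd74. Every probe with 1 of these symbols in the platform annotation was used, 77 of them for B2m and 14 for the other genes. The list was drawn up with the difference between the genotypes in view, because H2-Bl was higher and a probe of H2-D1 lower in knockouts. For that reason the knockout against control values below are a description and carry no p-value, and so are all values of H2-Bl and of that H2-D1 probe, also against the pool and between the ages.

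Livers came from 20 male mice, 5 in each of 4 groups: 5-month knockouts, 5-month controls, 3-month knockouts and 3-month controls. Knockouts were Alb-Cre +/-; Met Fl/Fl of strain 129SV/C57BL6, in which a Cre recombinase under the albumin promoter, active in hepatocytes, deletes c-Met, which binds hepatocyte growth factor. Controls were Alb-Cre +/- of strain B6129, so both genotypes carried the Cre. The strain labels differ between the genotypes, so genotype and strain cannot be told apart. All mice received 10 micrograms of the hepatocarcinogen N-nitrosodiethylamine (DEN) per gram of body weight at 14 days of age. The groups are named after the months since that dose in the design text, while the labels give ages of 20 and 12 weeks, so the time since the dose is unsettled. The question was how loss of c-Met in hepatocytes alters liver gene expression during chemical carcinogenesis. Each liver was hybridised against 1 reference, RNA pooled from livers of 5 wild-type B6129 males aged 12 weeks. Values are log2 ratios of liver over that pool, 1 per mouse, averaged over both dye orientations in 18 mice. The deposited ratio was taken to be Cy5 over Cy3. The labels and design text do not state this, and if it ran the other way every higher below would be a lower.

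A probe was called where limma gave a Benjamini-Hochberg adjusted p under 0.05 over all 36607 probes, in 1 fit over the 20 mice. The database numbers of the arrays fall into 4 consecutive runs, named series A to D here. Series A holds the 5-month controls and 5-month knockouts 1 and 2, series B the other 3 knockouts of that age, and series C and D hold 3-month mice of both genotypes. Age and series therefore cannot be told apart. The 5-month knockouts 2 and 3 had 1 dye orientation each, and a dye effect taken from the other mice was subtracted. In 5-month control 4, the array with the liver in Cy5 correlated at r = -0.61 to -0.48 across probes with the 10 such arrays of 3 months, and at 0.70 with the turned second array of its own mouse. Its direction is not settled. Most counts over 5-month controls, and calls that ended without this doubtful array or with its sign turned, are given with values from those settings beside them. The counts of neighbours of H2-Bl and H2-D1 on chromosome 17 are given as deposited only. The probe of the targeted gene Met gave 0.42 ± 0.21 in knockouts minus controls at 3 months (SE, limma adjusted p = 0.655) and -0.05 ± 0.21 at 5 months (limma adjusted p = 0.979). The first value was 0.25 without 3-month knockout 5, which lay at 0.28 while the other 4 lay at -0.59 to -0.53, and the second was 0.14 without 5-month knockout 3. Where that probe lies relative to the deleted part was not analysed here, so it checks nothing about the labels. Of 13 probes of hepatocyte markers, the mean log2 ratio to the liver pool lay between -0.70 and 0.11 in every mouse. The low end came from the 5-month controls, whose lowest mean was -0.35 with the doubtful array left out and -0.17 with it turned.

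Class I molecules are a heavy chain paired with beta-2 microglobulin, the product of B2m. They display peptides from inside the cell to CD8 T cells and are made by nearly all nucleated cells. Tap1 is a subunit of the transporter that carries these peptides into the endoplasmic reticulum, and Tapbp, tapasin, ties the transporter to the empty class I molecule. Class II molecules are pairs of an alpha and a beta chain, such as those of H2-Aa and H2-Ab1, which show peptides from endosomes to CD4 T cells. H2-Eb1 encodes a further beta chain. Cd74, the invariant chain, occupies the groove of new class II molecules until they reach endosomes. In liver, class II is known mainly from dendritic cells, B cells and macrophages, and class I also from hepatocytes and endothelium. Interferon gamma induces both sets.

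All members other than B2m (chr2:122147687-122153082) and Cd74 lie in the MHC region of chromosome 17. H2-K1 lies at chr17:33996012-34000619, Tapbp at chr17:33919478-33929290 just before it and Tap1 at chr17:34187556-34197225. H2-Ab1 (chr17:34263227-34269418), H2-Aa (chr17:34282744-34287823) and H2-Eb1 (chr17:34305867-34316674) follow. H2-D1 lies at chr17:35263094-35267497 and H2-Bl at chr17:36080110-36084249. Coordinates are those of RefSeq genes on GRCm38.p6, which annotates H2-Bl as a transcribed pseudogene and the other members as protein coding.

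Promoters are shown because class II genes are known to share an upstream X1, X2 and Y box arrangement, and class I genes and B2m carry related boxes with an interferon element. Of the 10 members, 7 had a promoter of 250 bases before to 50 bases after the start in the RefSeq table for GRCm38.p6. Capitals mark matches on either strand to GATTGG (Y box), GCAAC (X1 core), TGACG (X2 core) and GAAANNGAA (interferon element core). The sequences run 5′ to 3′ on the strand of the gene.
H2-Aa: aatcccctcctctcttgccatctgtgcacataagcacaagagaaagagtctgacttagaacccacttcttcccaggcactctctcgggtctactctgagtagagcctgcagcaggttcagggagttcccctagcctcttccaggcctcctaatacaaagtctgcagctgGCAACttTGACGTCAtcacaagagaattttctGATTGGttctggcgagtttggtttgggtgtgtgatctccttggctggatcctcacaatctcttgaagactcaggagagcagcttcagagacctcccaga
H2-Eb1: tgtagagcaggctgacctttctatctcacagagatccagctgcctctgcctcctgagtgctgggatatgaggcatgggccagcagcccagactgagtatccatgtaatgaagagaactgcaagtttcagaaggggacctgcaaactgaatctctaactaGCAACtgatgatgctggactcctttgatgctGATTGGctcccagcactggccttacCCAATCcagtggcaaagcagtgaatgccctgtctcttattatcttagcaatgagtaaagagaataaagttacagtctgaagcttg
B2m: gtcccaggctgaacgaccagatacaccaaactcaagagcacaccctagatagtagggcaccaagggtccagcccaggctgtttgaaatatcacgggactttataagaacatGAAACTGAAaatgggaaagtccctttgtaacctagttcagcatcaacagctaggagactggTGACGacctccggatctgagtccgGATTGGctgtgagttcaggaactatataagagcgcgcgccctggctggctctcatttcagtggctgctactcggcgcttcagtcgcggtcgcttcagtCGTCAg
H2-K1: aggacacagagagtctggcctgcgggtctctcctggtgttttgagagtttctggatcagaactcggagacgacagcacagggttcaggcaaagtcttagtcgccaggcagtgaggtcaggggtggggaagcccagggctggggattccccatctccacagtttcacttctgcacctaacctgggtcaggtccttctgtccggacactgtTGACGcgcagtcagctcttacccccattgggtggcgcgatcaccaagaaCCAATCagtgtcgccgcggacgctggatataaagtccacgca
The windows are chr17:34287774-34288073 on the minus strand for H2-Aa, chr17:34305617-34305916 on the plus strand for H2-Eb1, chr2:122147437-122147736 on the plus strand for B2m and chr17:34000298-34000597 on the minus strand for H2-K1, the first of 2 entries.

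In H2-Aa the X1 core began 81 bases and the Y box 49 bases before the start, with an X2 core between them at 74 bases that overlaps its own match on the opposite strand. In H2-Eb1 the X1 core began 91 bases and the Y box 60 bases before the start, and a second Y box match on the opposite strand lay at 35 bases. B2m had a Y box at 54 bases and an X2 core at 78 bases. It also had the single match to GAAANNGAA among the 7 promoters, at 139 bases. Only that fixed pattern was searched. The other promoters, that of H2-K1 included, may hold the element in another form. H2-K1 had an X2 core at 41 bases and a Y box match on the opposite strand just after the start. Across all 32851 promoters of the table, 16.1% held GATTGG, 35.2% GCAAC, 20.8% TGACG and 8.56% GAAANNGAA. An X1 core followed by a Y box on the same strand, with starts 31 to 32 bases apart, was found in 25 promoters (0.0761%), H2-Aa and H2-Eb1 among them. That spacing was chosen after both sequences had been seen.

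H2-Bl lay higher in knockouts than in controls at both ages. This class I gene was 2.46-fold higher in knockouts than in controls at 5 months (log2 1.30 ± 0.18, SE) and 2.06-fold higher at 3 months (1.05 ± 0.18). The knockouts had log2 ratios of 1.04, 0.69, 1.87, 1.42 and 0.97 at 5 months, against -0.05, -0.13, 0.11, -0.19 and -0.23 in the controls. At 3 months the knockouts had 1.57, 1.27, 0.91, 0.93 and 1.39, against 0.11, 0.03, 0.10, 0.15 and 0.45 in the controls. The genotypes did not overlap at either age: over both, the 10 knockouts lay between 0.69 and 1.87 and the 10 controls between -0.23 and 0.45. Of all 36607 probes, 10 (0.0273%) kept the genotypes apart over both ages.

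The difference of H2-Bl was present in each array series that held both genotypes, a description of the same values that chose the gene. It was 0.97 within series A, 1.34 within series C and 0.78 within series D. With the doubtful array of 5-month control 4 turned it was 1.27 at 5 months, and 1.30 without that array. Both dye orientations gave it: the liver-in-Cy5 arrays alone differed by 1.41 at 5 months and 0.98 at 3 months, and the turned liver-in-Cy3 arrays by 1.15 and 1.11. Before turning, the log2 ratios of the 5-month knockouts ran from 1.13 to 1.93 with the liver in Cy5 and from -1.63 to -0.64 with the liver in Cy3, so they mirror between the dyes.

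Against the wild-type pool the knockout means of H2-Bl were 1.20 ± 0.46 at 5 months and 1.22 ± 0.29 at 3 months (SD, n = 5 each), with 5 of 5 mice above the pool at each age. The control means were -0.10 ± 0.14 at 5 months and 0.17 ± 0.16 at 3 months (SD, n = 5 each). The knockout means thus lay 2.30-fold and 2.32-fold above the pool. These are the same knockout values that chose the gene, so they add no evidence of their own. Between the ages, 5 minus 3 months was -0.01 ± 0.18 in knockouts and -0.27 ± 0.18 in controls (SE), small beside the difference between the genotypes.

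**Figure D1:**
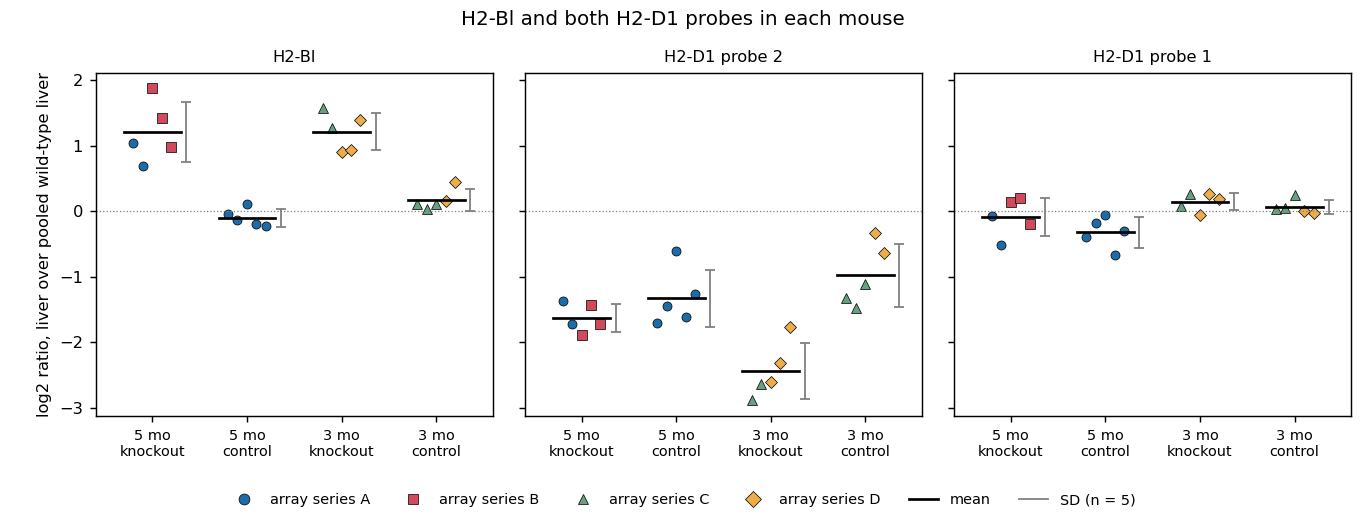
Log2 ratio of liver over pooled wild-type liver for H2-Bl and both H2-D1 probes, 1 point per mouse, marked by array series, with the mean as a line and the SD as a bar (n = 5). H2-Bl lies at 0.69 to 1.87 in knockouts and at -0.23 to 0.45 in controls, H2-D1 probe 2 lies below 0 in every mouse, and H2-D1 probe 1 stays near 0.

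H2-D1, one of the classical class I heavy chains, was measured by a pair of probes that disagreed. Probe 2 was lower in knockouts than in controls at 3 months, 2.76-fold (log2 -1.46 ± 0.24, SE), and differed by -0.30 ± 0.24 at 5 months. At 5 months the knockouts had -1.38, -1.72, -1.88, -1.43 and -1.72, against -1.71, -1.45, -0.61, -1.62 and -1.26 in the controls. At 3 months the knockouts had -2.89, -2.63, -2.60, -2.31 and -1.76, against -1.33, -1.48, -1.11, -0.33 and -0.64 in the controls. The groups overlapped at 5 months and did not at 3 months, where the highest knockout lay below the lowest control. Within series C the 3-month difference was -1.45 and within series D -1.74. The series differed in level too: controls of series D lay at -0.33 and -0.64, above those of series C. At 5 months the difference was -0.22 within series A, and -0.64 with the doubtful array turned.

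Probe 2 lay below the pool in all 4 groups. Its mean was -1.63 in 5-month knockouts, -1.33 in 5-month controls, -2.44 in 3-month knockouts and -0.98 in 3-month controls, with 5 of 5 mice below 0 in each. The mean of the 5-month controls was -0.99 with the doubtful array turned. Between the ages, 5 minus 3 months was 0.81 ± 0.24 in knockouts (SE), with 5 of 5 mice of 5 months above the 3-month mean, and 0.98 without 3-month knockout 5. In controls it was -0.35 ± 0.24, and -0.01 with the doubtful array turned.

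Probe 1 of H2-D1 stayed near the pool. At 5 months the knockouts had -0.07, -0.52, 0.14, 0.20 and -0.20, against -0.39, -0.18, -0.06, -0.68 and -0.30 in the controls, a difference of 0.23 ± 0.14 (0.17 with the doubtful array left out and 0.08 with it turned). At 3 months the knockouts lay between -0.06 and 0.26 and the controls between -0.03 and 0.24, a difference of 0.09 ± 0.14. The 5-month controls lay below the pool in 5 of 5 mice (-0.32 ± 0.23, SD, limma adjusted p = 0.0227), a call that ended without control 1 (-0.30, limma adjusted p = 0.0684) or control 4 (-0.23, limma adjusted p = 0.128), and with the doubtful array left out (-0.26, limma adjusted p = 0.0540) or turned (-0.17, limma adjusted p = 0.260). Over the 20 mice the probes correlated at r = -0.15, given as a description. A further probe, annotated to H2-K1 and H2-D1 together and so not counted as a member, correlated with probe 1 at 0.82. Class I heavy chain genes are close copies of one another and the probe sequences were not analysed here. Which transcripts each class I probe binds was not tested, for H2-Bl as well as for H2-D1.

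The neighbours of both genes on chromosome 17 were looked at as a window chosen after their values were seen. Within 250 kb of H2-Bl, 0 of 32 probes for 20 genes were called by limma between the genotypes, where 0.145% of all probes were called at 5 months and 0.0355% at 3 months (2 at 5 months and 1 at 3 months had an unadjusted p under 0.05), with differences from -0.49 to 0.43 at 5 months and from -0.19 to 0.44 at 3 months. Within 250 kb of H2-D1, 0 of 47 probes for 33 genes were called (10 and 3 at an unadjusted p under 0.05), with differences from -0.46 to 0.53 and from -0.48 to 0.41. Of all 36607 probes, 3837 had an unadjusted limma p under 0.05 at 5 months (2327 with the doubtful array turned) and 2915 at 3 months. As deposited, the 10 of 47 near H2-D1 lay above that share, and the other counts lay below theirs. The counts near both genes were not run with the doubtful array left out or turned, so nothing is read from the 10 of 47. Where so few probes are called in all, 0 called does not show that the neighbours were unshifted.

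H2-K1, the other classical class I heavy chain, lay above the pool in 3 of 4 groups with both probes. The reference is 1 pool, so its own spread is left out of tests against it. Probe 2 averaged 0.36 ± 0.20 in 5-month knockouts (SD, n = 5, limma adjusted p = 0.00505), 0.02 ± 0.12 in 5-month controls (limma adjusted p = 0.875), 0.66 ± 0.14 in 3-month knockouts (limma adjusted p = 3.75e-05) and 0.40 ± 0.17 in 3-month controls (limma adjusted p = 0.00189). The probe rose against the pool in all groups but the 5-month controls. Probe 1 gave 0.49, 0.13, 0.58 and 0.39 in the same groups and passed in the same 3. In 3-month controls its call ended without any 1 of controls 1 to 4 (0.34 to 0.40, limma adjusted p = 0.0506 to 0.102). With knockouts 1 and 2 of series A alone, the 5-month knockout means were 0.19 for probe 1 and 0.24 for probe 2, and neither passed.

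By mouse, probe 2 of H2-K1 had 0.39, 0.10, 0.31, 0.66 and 0.35 in 5-month knockouts, against -0.0095, 0.15, 0.008, -0.16 and 0.11 in 5-month controls. It had 0.86, 0.51, 0.58, 0.73 and 0.61 in 3-month knockouts, against 0.60, 0.38, 0.36, 0.50 and 0.15 in 3-month controls. Knockouts overlapped controls at each age, with differences of 0.34 ± 0.12 and 0.26 ± 0.12 (SE). In series A alone the 5-month difference was 0.22, and for probe 1 it was 0.06 against 0.36 with all mice. Between the ages, probe 2 fell by 0.38 on the log2 scale in controls (SE 0.12, 5 of 5 mice, limma adjusted p = 0.0427), while probe 1 gave -0.26 ± 0.18 (limma adjusted p = 0.326). The call of probe 2 sat at the threshold and ended in 11 of 20 fits that left out 1 mouse, with values from -0.40 to -0.33, among them 3-month control 1 (limma adjusted p = 0.103) and 5-month control 4 (limma adjusted p = 0.111). It also ended with the doubtful array left out (limma adjusted p = 0.0627) or turned (limma adjusted p = 0.0889). Knockouts gave -0.30 ± 0.12 (limma adjusted p = 0.133).

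B2m was read as the mean of its 77 probes per mouse. These did not measure alike: within a mouse their SD ran from 0.16 to 0.39, 66 correlated with the mean at r above 0.5 and 4 below 0. The 5-month controls had -0.14, 0.052, 0.19, -0.38 and 0.069, against 0.55, 0.44, 0.69, 0.26 and 0.20 in 3-month controls. The ages did not overlap in controls, with means of -0.04 ± 0.22 and 0.43 ± 0.20 (SD, n = 5 each), a difference of -0.47 with an exact two-sided permutation p = 0.00794, the smallest that 252 arrangements allow. Limma called 56 of the 77 probes lower and 1 higher, where it called 14.7% of all probes, 7.25% lower. With the doubtful array left out the difference was -0.44 and 46 probes were lower, and with it turned -0.38 and 17, where 3.21% of all probes were lower. The ages did not overlap in either case, with the same exact permutation p.

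In knockouts B2m had 0.27, 0.10, 0.48, 0.41 and 0.23 at 5 months, against 0.51, 0.56, 0.26, 0.32 and 0.20 at 3 months. These overlapped, with a difference of -0.07 (exact two-sided permutation p = 0.476) and 1 probe called higher, where 4.73% of all probes were called. Among the 3-month mice the 5 of series C lay at 0.44 to 0.69 and the 5 of series D at 0.20 to 0.32 in either genotype, so these levels also differed between the series. At 5 months the knockouts of series A had 0.27 and 0.10 and those of series B 0.23 to 0.48. The knockout mean minus the control mean was 0.34 at 5 months and -0.06 at 3 months, both with overlap.

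**Figure D2:**
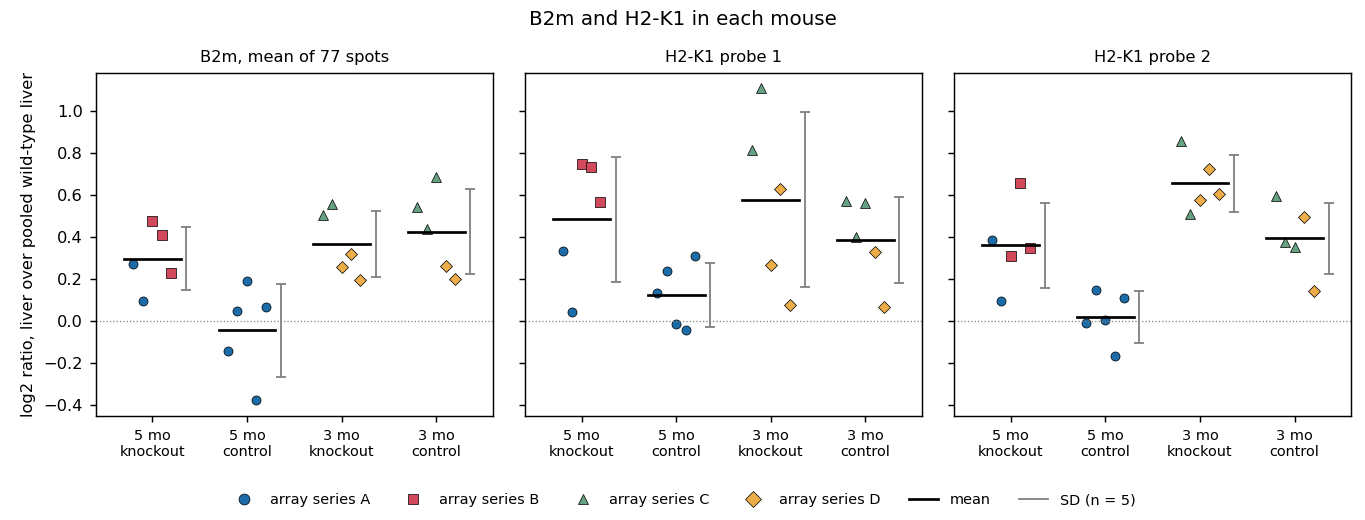
Log2 ratio of liver over pooled wild-type liver for B2m (mean of 77 probes) and both H2-K1 probes, 1 point per mouse, marked by array series, with the mean as a line and the SD as a bar (n = 5). The 5-month controls lie lowest on average in each panel, at means of -0.04, 0.13 and 0.02.

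Tap1 and Tapbp stayed within the spread of the mice. Tap1 averaged 0.10 in 5-month knockouts, 0.15 in 5-month controls, 0.15 in 3-month knockouts and -0.04 in 3-month controls, and Tapbp 0.18, 0.16, -0.10 and -0.44. Neither was called against the pool or between the ages (limma adjusted p from 0.053 to 0.884). The value nearest to a call was Tapbp in 3-month controls, where 5 of 5 mice lay below 0 (-0.64 to -0.09), and it passed without 3-month control 3 (-0.53, limma adjusted p = 0.0450) or with 1 of 5-month knockouts 1 and 2 or 5-month control 1 left out of the fit (-0.44, limma adjusted p = 0.0310 to 0.0387). Genotype differences of Tap1 were -0.05 ± 0.20 at 5 months and 0.19 ± 0.20 at 3 months, and those of Tapbp 0.01 ± 0.24 and 0.34 ± 0.24. Tapbp in the 5-month knockouts ran from -0.595 to 0.86 and in the 5-month controls from -0.30 to 0.82, wider than at 3 months.

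The class II genes stood above the pool most clearly in 3-month controls. All 7 probes of H2-Aa, H2-Ab1, H2-Eb1 and Cd74 rose against the wild-type pool there, with means of 1.92 for H2-Aa (3.80-fold, limma adjusted p = 0.000196), 1.44, 1.39 and 1.02 for H2-Ab1, 1.11 and 0.82 for Cd74 and 0.49 for H2-Eb1, where 29.9% of all probes were called. In 5-month controls limma called 0 of the 7 (0 at an unadjusted p under 0.05, and 29.2% of all probes called), and the means ran from -0.24 (H2-Ab1 probe 3) to 0.33 (Cd74 probe 2). It called 0 of the 7 also with the doubtful array left out (17.3%) or turned (4.99%), when the means ran from -0.20 to 0.36 and from -0.09 to 0.28. In knockouts 3 of 7 rose at 5 months (H2-Ab1 probe 2 at 0.89, Cd74 probe 2 at 0.95 and H2-Eb1 at 0.52), where 29.5% of all probes were called, and 1 of 7 at 3 months (Cd74 probe 1 at 0.67), where 28.2% were. The 3-month knockout count depended on the processing. With each array centred on its median, H2-Aa (0.89), H2-Ab1 probe 2 (0.79) and H2-Eb1 (0.56) also passed there (limma adjusted p = 0.0152 to 0.0357). The same probes passed under quantile normalisation. In bulk tissue, fewer cells of a type and less RNA per cell cannot be told apart.

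Several of these calls rested on single mice. In 3-month controls, Cd74 probe 2 did not pass without control 3 or 4 (0.62 and 0.72), and H2-Eb1 did not pass without control 3, 4 or 5 (0.30, 0.48 and 0.47). In 5-month knockouts, H2-Ab1 probe 2 and H2-Eb1 did not pass without knockout 3, 4 or 5 (0.71 to 0.81 and 0.38 to 0.49), nor Cd74 probe 2 without knockout 3 (0.70). None of these calls held with the 5-month knockouts of series A alone. H2-Ab1 probe 2 was then at 0.15 (limma adjusted p = 0.872), Cd74 probe 2 at 0.36 (limma adjusted p = 0.594) and H2-Eb1 at -0.031. In 3-month knockouts, Cd74 probe 1 did not pass without any 1 of knockouts 1 to 4 (0.55 to 0.71). In the other direction, H2-Aa (1.06) and Cd74 probe 1 (0.66) passed in 5-month knockouts without knockout 2, and H2-Ab1 probe 2 (0.94), H2-Eb1 (0.56) and Cd74 probe 2 (0.73) in 3-month knockouts without knockout 5. With mice of other groups left out of the fit, H2-Aa passed in 3-month knockouts (0.78) without 5-month knockout 2 or 5-month control 3, and H2-Eb1 (0.45) without 5-month knockout 2 or 4 or 3-month control 3.

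H2-Aa, the alpha chain of the H2-A molecule, changed most with age in controls. The 5-month controls had -0.42, 0.17, 1.48, -0.61 and -0.39, against 1.40, 1.46, 2.90, 1.97 and 1.89 in 3-month controls. The gene fell 3.68-fold (log2 -1.88 ± 0.44, SE, limma adjusted p = 0.0102), with 5 of 5 mice below the 3-month mean and an overlap through 5-month control 3 alone. In knockouts it had 0.023, -0.75, 1.40, 1.61 and 1.23 at 5 months, against 0.62, 1.08, 1.13, 0.90 and 0.20 at 3 months, a change of -0.08 ± 0.44 (limma adjusted p = 0.925). The call in controls held with the doubtful array turned (-1.71, limma adjusted p = 0.0252) or left out (-1.81, limma adjusted p = 0.0140).

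H2-Ab1, the beta chain that pairs with H2-Aa, gave the same picture on its 3 probes. Probe 3 had -0.41, -0.0030, 0.30, -0.69 and -0.42 in 5-month controls, against 0.89, 0.57, 1.42, 0.97 and 1.27 in 3-month controls. It fell 2.41-fold (log2 -1.27 ± 0.23, limma adjusted p = 0.00237), and the ages did not overlap. Probe 1 fell 2.83-fold (-1.50 ± 0.33, limma adjusted p = 0.00746), and probe 2, at -1.07 ± 0.40 with 5 of 5 mice lower, did not pass (limma adjusted p = 0.0751). Probe 2 passed without 3-month control 2 (-1.33, limma adjusted p = 0.0462). The calls of probes 1 and 3 held with the doubtful array left out (-1.46 and -1.22) or turned (-1.43, limma adjusted p = 0.0186, and -1.11, limma adjusted p = 0.00767). In knockouts the 3 probes changed by -0.02, 0.20 and 0.13 (limma adjusted p = 0.746 to 0.975).

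H2-Eb1 changed less. The 5-month controls had -0.26, 0.14, -0.15, -0.24 and -0.05, against 0.12, -0.02, 1.26, 0.52 and 0.57 in 3-month controls, a difference of -0.60 ± 0.24 that did not pass (limma adjusted p = 0.0976). Cd74, the invariant chain (chr18:60803849-60812652), fell 2.03-fold with probe 1 (-1.02 ± 0.32, limma adjusted p = 0.0367) and gave -0.49 ± 0.35 with probe 2 (limma adjusted p = 0.338). Probe 1 had 0.041, 0.22, 0.80, -0.33 and -0.30 in 5-month controls, against 0.69, 0.79, 1.98, 1.36 and 0.73 in 3-month controls. Its call ended without 3-month control 3 (-0.80) or 4 (-0.96), or without 5-month control 1 (-1.01), 2 (-1.05), 4 (-0.92) or 5 (-0.93), with limma adjusted p from 0.0502 to 0.104. It also ended with the doubtful array left out (limma adjusted p = 0.0686) or turned (limma adjusted p = 0.0901).

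**Figure D3:**
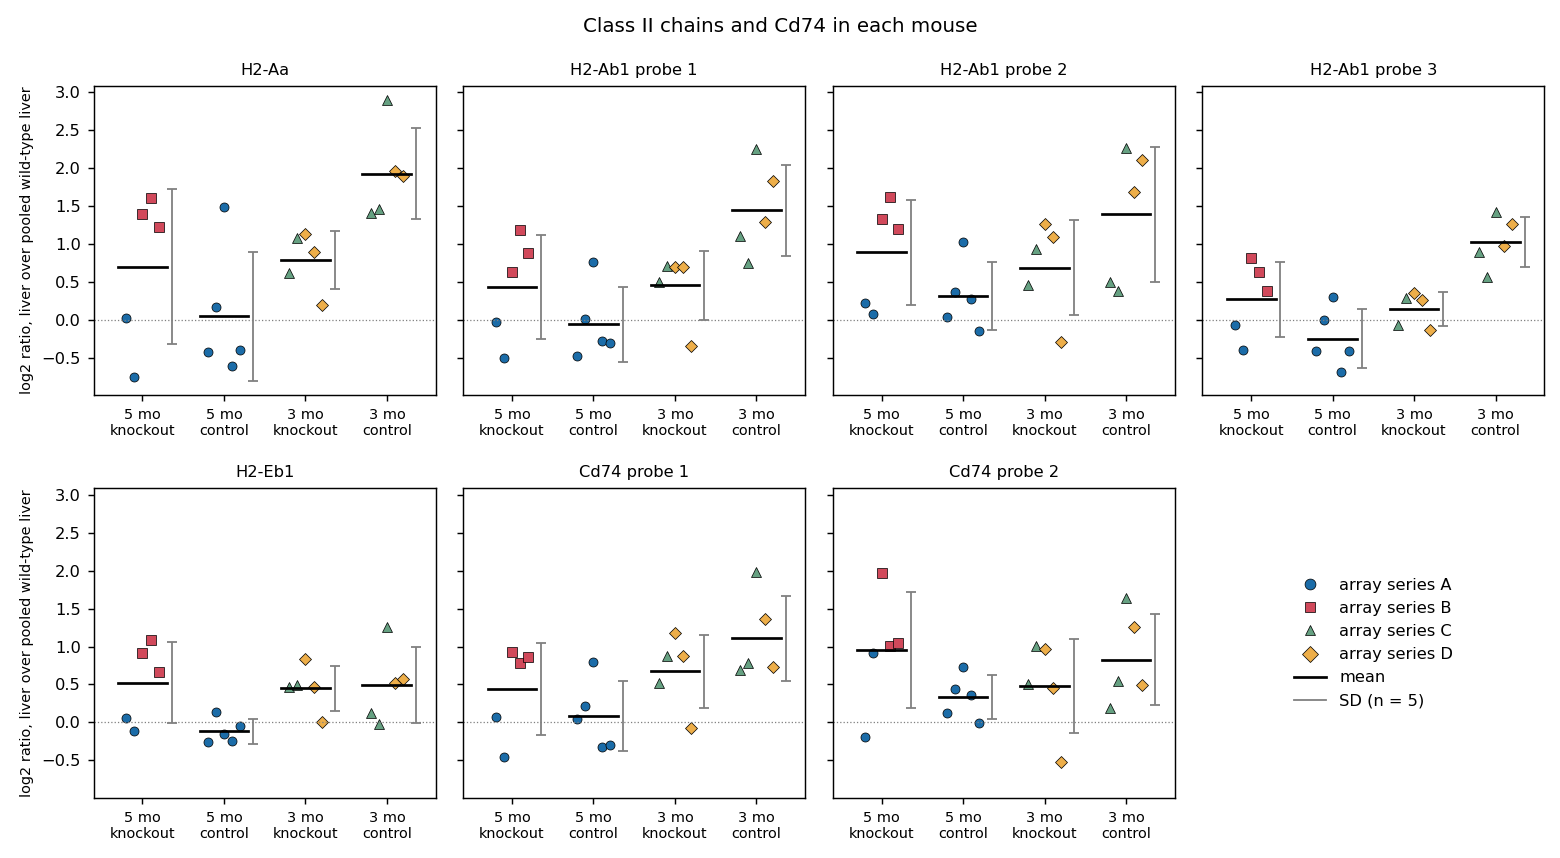
Log2 ratio of liver over pooled wild-type liver for the 7 class II probes, 1 point per mouse, marked by array series, with the mean as a line and the SD as a bar (n = 5). For H2-Aa the 5-month knockouts of series B lie at 1.23 to 1.61 and those of series A at -0.75 and 0.02, beside 5-month controls at -0.61 to 1.48.

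The 5-month knockouts split by array series for the class II genes. The mean of the 7 probes was 0.01 and -0.18 in knockouts 1 and 2 of series A and 1.14, 1.13 and 0.90 in knockouts 3 to 5 of series B, against -0.23 to 0.71 in the 5 controls, all of series A. Within series A the knockouts minus controls gave -0.41 for H2-Aa and -0.20, -0.17 and 0.01 for H2-Ab1, where all 5 knockouts gave 0.66, 0.49, 0.57 and 0.52. Series B holds knockouts alone, so these higher values and the series cannot be told apart. At 3 months the difference of H2-Aa was -1.07 within series C and -1.19 within series D. The change with age in knockouts was -1.15 for H2-Aa when series A alone stood for the 5-month knockouts (limma adjusted p = 0.308).

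At 3 months, knockouts minus controls gave -1.14 ± 0.44 for H2-Aa, -0.99 ± 0.33, -0.70 ± 0.40 and -0.88 ± 0.23 for H2-Ab1, -0.44 ± 0.32 and -0.34 ± 0.35 for Cd74 and -0.04 ± 0.24 for H2-Eb1. At 5 months the same probes gave values from 0.35 ± 0.32 (Cd74 probe 1, 0.23 with the doubtful array turned) to 0.66 ± 0.44 (H2-Aa). The genotype difference at 5 months minus that at 3 months was thus 1.79 for H2-Aa, 1.27 to 1.48 for H2-Ab1, 0.67 for H2-Eb1 and 0.79 and 0.96 for Cd74, against 0.25 for H2-Bl and 1.17 for H2-D1 probe 2. These changes rest on the contrasts that chose the list and were not tested. They share the 4 groups with the age changes above, so neither is independent of the other.

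**Figure D4:**
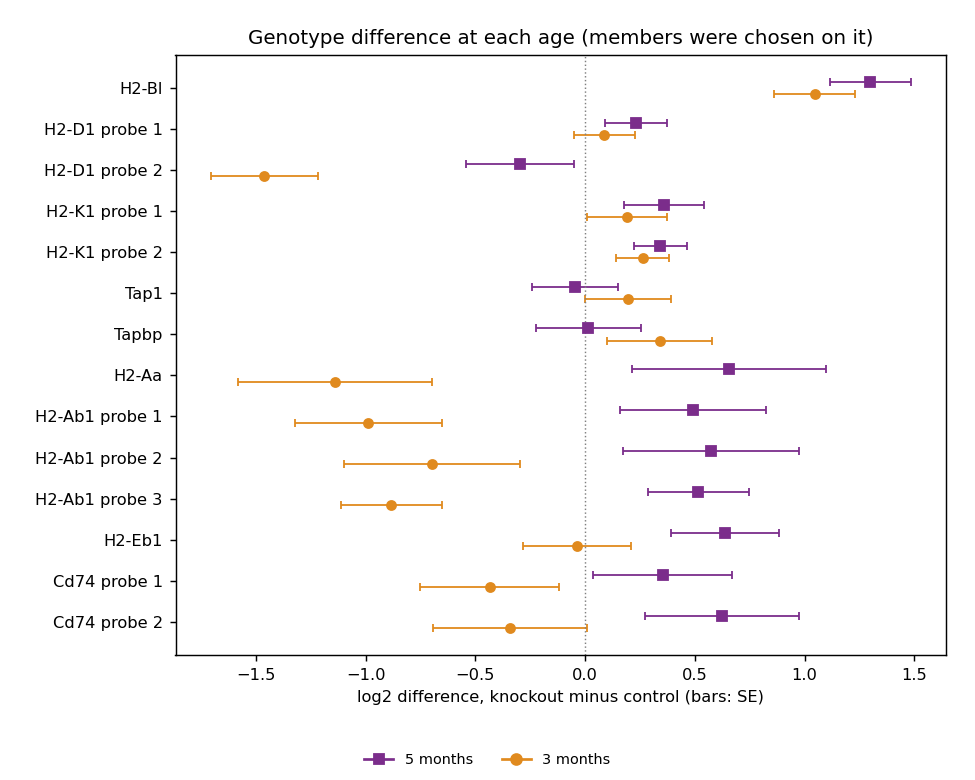
Log2 difference of knockout minus control livers at 5 months (squares) and 3 months (circles) for the 14 probes other than those of B2m, with SE bars from limma. H2-Bl is at 1.30 and 1.05, H2-D1 probe 2 at -0.30 and -1.46, and the 7 class II probes lie above 0 at 5 months and below 0 at 3 months.

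Between the genotypes, limma called 1 of the 14 probes higher and 0 lower at 5 months, where 0.145% of all probes were called (8 probes in place of 53 with the doubtful array turned), and 1 higher and 1 lower at 3 months, where 0.0355% were called. The members were chosen on these values, so nothing is read from the counts. Inside the threshold at 3 months lay H2-D1 probe 2 (-1.46) and H2-Bl (1.05). The next by rank, H2-Ab1 probe 3 (-0.88) and probe 1 (-0.99), were well outside it. At 5 months H2-Bl (1.30) lay inside, and H2-K1 probe 2 (0.34) and H2-Eb1 (0.64) came next, well outside. The genotypes did not overlap for 1 of 14 probes at 5 months (3.92% of all probes, and 2.28% with the doubtful array turned) and for 5 of 14 at 3 months (1.31% of all probes), which were H2-Bl, H2-D1 probe 2, H2-Aa and H2-Ab1 probes 1 and 3. The sign of the difference was the same in both dye orientations for 11 of 14 probes at 5 months, the exceptions being Tap1, Tapbp and Cd74 probe 1, and for 14 of 14 at 3 months.

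Between the ages, 5 of the 14 probes fell and 0 rose in controls, where limma called 14.7% of all probes, 2714 higher and 2655 lower. The share rested on the doubtful array: 8.95% were called without it and 5.18% with it turned, and 3 of the 14 fell in either case, H2-Aa and H2-Ab1 probes 1 and 3. Without 5-month control 4 altogether 2389 probes were called in place of 5369. The median change was -0.44 over the 14 probes and -1.07 over the 7 class II probes, of which 4 fell, beside 0.13 over all probes. With each array centred on its median the split over all probes was 1556 higher and 4747 lower, since that moved the median of all probes by -0.15 in controls and -0.17 in knockouts. In knockouts limma called 0 of 14 (2 at an unadjusted p under 0.05), where 4.73% of all probes were called (1732, but 388 without 5-month knockout 3 and 3022 without 3-month knockout 3), with medians of -0.02 over the members and 0.14 over all probes. The ages did not overlap for 2 of 14 probes in controls (H2-D1 probe 1 and H2-Ab1 probe 3), against 12.5% of all probes (1 of 14, H2-Ab1 probe 3, against 7.19% with the doubtful array turned), and for 0 of 14 in knockouts, against 6.89%. Whether the change differed between the genotypes was not tested.

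**Figure D5:**
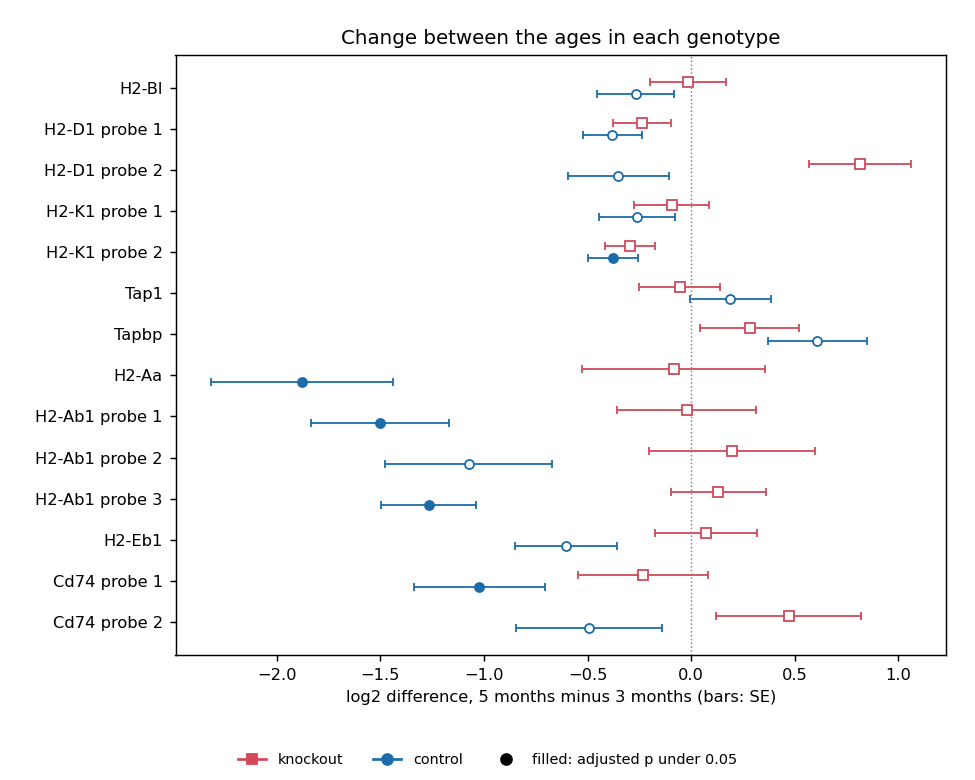
Log2 difference of 5 minus 3 months in knockouts (squares) and controls (circles) for the 14 probes other than those of B2m, with SE bars and filled symbols where the limma adjusted p was under 0.05. In controls the 7 class II probes lie between -1.88 and -0.49, and in knockouts between -0.23 and 0.47 with 0 filled.

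Against the pool, 6 of 14 probes rose and 1 fell in 5-month knockouts, where 29.5% of all probes were called. In 5-month controls 0 rose and 2 fell, both of H2-D1, with 29.2% called overall. With the doubtful array left out or turned 1 of 14 fell there, H2-D1 probe 2, with 17.3% and 4.99% called overall. In 3-month knockouts 4 rose and 1 fell (28.2% overall), and in 3-month controls 9 rose and 1 fell (29.9% overall). These counts include H2-Bl and H2-D1 probe 2. Of the 12 other probes, 5 rose in 5-month knockouts, 1 fell in 5-month controls, 3 rose in 3-month knockouts and 9 rose in 3-month controls. The share of these 12 called was 75% in 3-month controls, above the background there. The medians over the 14 probes were 0.44, 0.03, 0.47 and 0.44 in these groups, beside 0.11, 0.09, -0.12 and -0.06 over all probes. B2m lay above the pool in every 5-month knockout, 3-month knockout and 3-month control (means 0.30, 0.37 and 0.43), each with an exact two-sided permutation p = 0.0625, the smallest that 32 sign arrangements allow.

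Other genes of the pathway were read from lists that hold none of the members. In the comparison of genotypes limma called 0 of their 105 probes at either age. It called 0.145% of all probes at 5 months and 0.0355% at 3 months, so nothing is read from the 0. An unadjusted p under 0.05 was found for 13 of the 105 at 5 months and 8 at 3 months, beside 3837 and 2915 of all 36607. Of the 13, 8 were among 28 probes of further class I and class I-like genes (median 0.23). With the doubtful array left out these were 3 of 28 (median 0.17), beside 3242 of all probes. With it turned they were 0 of 28 (median 0.097), beside 2327. The probe of this list with the smallest p went the other way. It was of Cd1d2, lower in knockouts by -0.84 ± 0.30 at 5 months (SE, limma adjusted p = 0.333) and -1.36 ± 0.30 at 3 months (limma adjusted p = 0.127). In controls between the ages the counts of the lists rested on the doubtful array, as did the share over all probes, 14.7% called with 7.25% lower. As deposited, 6 of 28 probes of further class I and class I-like genes fell and 0 rose (median -0.19), among them H2-Q1 (-0.62 ± 0.14, limma adjusted p = 0.0102), H2-Q5 (-0.42), H2-Q7 (-0.41, a further probe -0.39) and H2-T23 (-0.38, a further probe -0.09). H2-Q and H2-T genes encode nonclassical class I chains. With the array left out 3 of the 28 fell, and with it turned limma called 0 (5 at an unadjusted p under 0.05), with H2-Q1 at -0.44 (limma adjusted p = 0.0939). Of 23 probes for peptide supply and loading, 6 fell and 0 rose as deposited (median -0.31): Sec61b, a translocon subunit, gave -1.02 ± 0.19 (limma adjusted p = 0.00290) with a further probe at -0.65, and the proteasome activator genes Psme2 and Psme1 gave -0.64 and -0.44. Of these 23, 2 fell with the array left out and 1 with it turned, the first Sec61b probe (-0.79, limma adjusted p = 0.0375), while Psme2 was at -0.41 (limma adjusted p = 0.115). In knockouts limma called 0 of the probes of either list between the ages, where 4.73% of all probes were called. An unadjusted p under 0.05 was found for 5 and 3 of them, beside 9411 of all 36607 probes. With so small a share called, the 0 sets the knockouts apart from the controls no further. Psme2 gave -0.50 ± 0.15 there (limma adjusted p = 0.0614).

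Of 15 probes for further class II chains and peptide loading, 2 fell with age in controls and 0 rose, with a median of 0.12, beside 14.7% of all probes called. They were Ctss, the protease that cuts the invariant chain (-1.12 ± 0.23, limma adjusted p = 0.00485), and the endosomal protease gene Lgmn (-0.53 ± 0.13, limma adjusted p = 0.0148). With the doubtful array turned Ctss still fell (-0.93, limma adjusted p = 0.0225) and Lgmn did not pass (-0.29, limma adjusted p = 0.287), beside 5.18% of all probes. H2-DMb1, part of the peptide exchanger of class II, rose against the pool in 3-month controls (0.53, limma adjusted p = 0.0142), as did Ctss (0.49). In 5-month controls Ctss (-0.62) and Lgmn (-0.63) fell below it, and neither passed with the doubtful array turned (-0.44, limma adjusted p = 0.109, and -0.39, limma adjusted p = 0.0508). Marchf8, a ubiquitin ligase that removes class II from the surface, lay above the pool in every group, at 0.71 in 5-month knockouts, 0.90 in 5-month controls (0.78 with that array turned), 0.66 in 3-month knockouts and 0.51 in 3-month controls.

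Among 39 probes for transcription factors and interferon signalling, 4 rose and 1 fell with age in controls (median 0.09), near the share over all probes (14.7%). With the doubtful array left out 3 rose and 1 fell, and with it turned 1 rose and 0 fell. Irf1, an interferon-induced activator of class I genes, gave -0.83 ± 0.25 with 1 of 4 probes (limma adjusted p = 0.0332), where the others gave 0.06, -0.18 and -0.33. Rfxank, a subunit of the X box factor, rose with both probes (0.79 and 0.61), and the interferon receptor gene Ifnar1 rose by 0.58. With the array turned none of these 4 probes passed: Irf1 was at -0.53 (limma adjusted p = 0.189), Rfxank at 0.66 (limma adjusted p = 0.0653) and 0.32, and Ifnar1 at 0.39 (limma adjusted p = 0.251). In knockouts 1 of 39 rose, where 4.73% of all probes were called. It was a probe of Creb1 (0.66, limma adjusted p = 0.0227), with 4 further probes at 0.30 to 0.69.

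Markers of cells that carry class II were counted beside these results. In controls between the ages, 4 of 19 probes of Kupffer cell and macrophage markers fell and 0 rose (median -0.34), where 7.25% of all probes fell. They were of Lyz2 (-1.02, further probes 0.75, -0.52 and -0.36), Clec4f (-0.58), C1qc (-0.74) and Adgre1 (-0.96, a further probe -0.28). Of the 19, 4 fell with the doubtful array left out, and with it turned limma called 0 (5 at an unadjusted p under 0.05, median -0.25), these 4 being at -0.74, -0.38, -0.48 and -0.83. In knockouts 1 of 19 rose, a probe of Lyz2 (2.47, further probes -0.16, 0.15 and 0.13), with a median of 0.04, where 4.73% of all probes were called. In controls limma called 0 of 12 dendritic cell probes (5 at an unadjusted p under 0.05, median 0.38) and 0 of 18 T and NK cell probes (1 at an unadjusted p under 0.05, median 0.05), while of 12 B cell probes 1 rose (median 0.16) and of 13 neutrophil probes 1 rose (median 0.40). Of 13 sinusoidal endothelial probes 3 fell (median -0.25) and of 13 hepatocyte probes 2 fell (median -0.30). With the array turned, 1 of these endothelial probes was called and 0 of the B cell, neutrophil and hepatocyte probes by limma (2, 4 and 4 at an unadjusted p under 0.05). The mean over the macrophage probes ran from -0.10 to 0.31 in 5-month knockouts, -0.35 to 0.09 in 5-month controls, -0.38 to 0.35 in 3-month knockouts and -0.02 to 0.35 in 3-month controls. The dendritic cell mean ran from -0.14 to 0.42, 0.06 to 0.38, -0.55 to -0.14 and -0.79 to 0.12 in these groups, and from -0.07 to 0.36 in 5-month controls with the array turned. Between the genotypes limma called 0 probes of any marker list at either age, where 0.145% of all probes were called at 5 months and 0.0355% at 3 months. At 5 months 9 of 19 macrophage probes (median 0.27) and 6 of 13 endothelial probes (median 0.36) had an unadjusted p under 0.05, beside 3837 of all 36607 probes. With the doubtful array left out these were 7 and 6, beside 3242 of all probes, and with it turned 3 and 4, beside 2327. In the other marker lists 0 to 2 probes had such a p at 5 months as deposited. The part of the marked cell types in the class II values was not tested, and ratios to a pool do not give the level of a marker.

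Likeness was read as Pearson's r over the 20 mice, as a description: the points share groups and array series. The genes most like H2-Bl were Lrtm1 (0.89), Glo1 (0.88), St7 (0.87), Rgs5 (0.83) and Cib3 (0.83). Glo1 lies on chromosome 17 like H2-Bl and encodes a methylglyoxal-detoxifying enzyme, and St7 lies on chromosome 6. The genes most like H2-D1 probe 2 were Brwd1 (0.80), Gadd45gip1 (0.79), Paip1 (0.78), Map3k21 (0.77) and Them7 (0.76). Those most like the mean of the 7 class II probes were Ctss (0.87), Zc2hc1c (0.86), Fcer1g (0.83), an Fc receptor subunit of myeloid cells, Epor (0.82) and H2-DMb1 (0.82). Among the class II probes r ran from 0.56 to 0.96 over 21 pairs. B2m correlated with the class II mean at 0.68 and with H2-K1 probe 2 at 0.71, while H2-Bl correlated with the class II mean at 0.17.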

How the data were processed

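RNA of 20 livers was compared with 1 liver pool on 38 two-colour arrays. Per the labels' design text, the authors scanned with a GenePix 4000A, excluded invalid features and normalized each array to the 50th percentile of its median signal. They deposited 1 log ratio per probe and array. The deposited values are log2 ratios, a base read from the values themselves: how often each value occurs correlated between values 1.000 apart (mean r = 0.50 over 38 arrays) more than between values 0.99 or 1.01 apart (0.06). Array medians were not 0, running from -0.65 to 0.09 with the liver in Cy5 and from -0.385 to -0.035 with it in Cy3, and were left as deposited. The number of arrays limits the precision. The files give no signal over background, so probes of low signal could not be picked out. The numerator of the ratio is not given in the sources used here and was taken as Cy5.

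Liver-in-Cy3 arrays were turned in sign and both arrays of a mouse averaged. For the 2 mice with 1 orientation, a dye effect from the 18 others was subtracted per probe. All 38 columns were mapped to mice, and 0 columns stayed unused. Groups are labelled as separate animals. One limma fit (limma 3.58.1, R 4.3.3; lmFit and eBayes) over 36607 probes and 20 mice gave each contrast, with Benjamini-Hochberg adjustment over all probes, and was tested on simulated data. B2m means were compared by exact permutation over mice. Platform symbols named 26926 probes with 1 gene, 203 with several and 9478 with none, and only the first kind was named. Promoters came from RefSeq GRCm38.p6.

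The members and lists were chosen with earlier results of these data known. No p-value is given for H2-Bl and H2-D1 probe 2, on whose values the choice rested. Text names every member probe, the 5 genes most correlated with each of 3 targets, and Met. From each list and contrast, up to 4 called probes with the smallest p (2 where none was called) were picked. Only a part of these picks is named, so the list genes in the text are not the full set. The alternatives were centring, quantile normalisation, another dye effect, leaving out arrays or mice, only the groups compared, an animal-number block, array series as a covariate, fits within series and the methods' t-test at an unadjusted threshold of 0.001, run with a plain pooled variance where the design text names a random variance model. Turning the doubtful array, leaving out 5-month knockouts 2 and 3, and using series A alone for that group were added after seeing the data. Same-numbered knockouts and controls deviated together at r = -0.18 to 0.17 at 5 months and -0.07 to 0.11 at 3 months, so the numbers pair no mice.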

Additional observations from a re-analysis of the deposited data

Results flagged for a closer look

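Of 72 groups of 5 mice, 4 held a mouse that stood apart from the other 4, where chance gives about 1 in 20. Tap1 was at 0.74 in 5-month control 1, while the other 4 controls of that age lay between -0.07 and 0.14. H2-Ab1 probe 1 was at -0.34 in 3-month knockout 5, while the other 4 knockouts lay between 0.50 and 0.71. That knockout was also the lowest of its group for H2-Aa (0.20), H2-Eb1 (0.002) and both Cd74 probes (-0.08 and -0.52). The Met probe was at 0.28 in 3-month knockout 5, while the other 4 knockouts lay between -0.59 and -0.53. It was at -1.57 in 5-month knockout 3, while the other 4 knockouts lay between -0.75 and -0.45.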

How the results depend on the processing

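Of 896 values of the members under alternatives other than leaving out 1 mouse, 851 kept their sign. The 45 others were 1 called value, H2-Eb1 in 5-month knockouts against the pool, at -0.031 with series A alone, and 44 that had not been called or tested. Among these, series A alone also turned H2-Aa (-0.36), H2-Ab1 probes 1 and 3 (-0.26 and -0.23), Cd74 probe 1 (-0.19) and Tap1 (-0.22) in that comparison. Of 153 called values 131 kept their call and 22 lost it, and 17 calls were gained, H2-Bl and H2-D1 probe 2 left aside. H2-Bl kept a positive genotype difference, and H2-D1 probe 2 a negative one, under every alternative run. Both probes were chosen on these differences in the same mice, so this adds no evidence of its own. Leaving out 1 mouse kept 421 of 460 calls, lost 39, gained 15 and turned the sign of 43 values that had not been called. Each array centred on its median brought H2-K1 probe 2 in knockouts between the ages past the threshold (-0.47, limma adjusted p = 0.0431), and in controls H2-D1 probe 1 (-0.53), H2-Ab1 probe 2 (-1.22) and H2-Eb1 (-0.75). Centring did the same in 3-month knockouts against the pool for H2-Aa (0.89), H2-Ab1 probe 2 (0.79) and H2-Eb1 (0.56).

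Counts over all probes moved further, and the cause was not tested. Knockout minus control at 5 months called 53 probes in the fit reported above. It called 29 centred, 110 under quantile normalisation, 4 with only its groups, 16 with the replicate block, 0 with series as a covariate (3440 at an unadjusted p under 0.05), 2 within series A, 8 with the doubtful array turned, 21 without knockouts 2 and 3 and 0 with series A knockouts alone (2990). The methods' t-test gave 242 unadjusted and 0 after Benjamini-Hochberg (4720). At 3 months 13 probes were called. The count was 22 under quantile normalisation, 26 with the dye effect of the same age, 1 with the doubtful array left out and 1 with it turned, 0 with only its groups (2198), 3 with the replicate block, 27 with series as a covariate, 0 within series C (2312) and 0 within series D (1939). The methods' t-test gave 63 unadjusted and 0 after Benjamini-Hochberg (2164).

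Between the ages, 1732 probes were called in knockouts: 3842 under quantile normalisation, 267 with only these groups, 13 without knockouts 2 and 3 and 200 with series A alone. In controls 5369 were called: 3277 without the doubtful array and 1897 with it turned. Against the pool, the 5-month knockouts' 10787 became 3152 without knockouts 2 and 3 and 1621 with series A alone. The 5-month controls' 10676 became 6338 without the doubtful array and 1826 with it turned. With only the group in the fit, the 3-month knockouts' 10312 became 4737 and the 3-month controls' 10948 became 5745. Centring turned the age split in knockouts to 796 higher and 1292 lower, where it was 1460 and 272. Against the pool it gave 4473 higher and 5835 lower for 5-month knockouts (6249 and 4538 as deposited), 3931 and 6755 for 5-month controls (5372 and 5304), 5542 and 3864 for 3-month knockouts (3870 and 6442) and 6020 and 4699 for 3-month controls (4512 and 6436).

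Leaving out 1 mouse gave 10 (without 5-month control 4) to 105 (without 5-month control 3) genotype calls at 5 months and 0 (without 3-month knockout 1) to 26 (without 5-month knockout 3) at 3 months. Age calls ran from 388 (without 5-month knockout 3) to 3022 in knockouts and from 2389 (without 5-month control 4) to 6535 in controls. Calls against the pool ran from 6435 (without 5-month knockout 3) to 11478 for 5-month knockouts, from 5347 (without 5-month control 4) to 11779 for 5-month controls, from 6923 to 11006 for 3-month knockouts and from 7851 to 11458 for 3-month controls. The numbers pair no mice, so calls lost under the block carry no reading.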
